A study of Homo sapiens with 6 samples.

Results

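Integrins and laminins, the cell-surface receptors for the extracellular matrix and the chains of the main glycoprotein of basement membranes, were compared between TAE684-resistant and parental neuroblastoma (NB) cells. Every gene was taken whose single annotated symbol is that of an integrin α subunit, an integrin β subunit or a laminin α, β or γ chain, which gave 35 of the 19775 genes measured: 18 integrin α, 7 integrin β and 10 laminin genes. SY5Y-TR1 cells, a single subclone selected from SH-SY5Y by rising doses of the ALK inhibitor TAE684, were kept in medium with 1 µM of the drug, and the parental SH-SY5Y cells were kept without it. Both lines carry the activating ALK mutation F1174L. For each line there are 3 Affymetrix U133 Plus 2.0 expression arrays, called biological replicates in the labels. How the cultures were separated is not described, so p-values measure the spread between these arrays, and the state of the subclone and the drug in its medium cannot be told apart.

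An integrin is a heterodimer of one α and one β subunit, and the α subunit largely sets which ligand is bound. Subunit β1 pairs with many α subunits to form receptors for collagen, laminin and fibronectin, whereas αV pairs with several β subunits to form receptors for the RGD peptide motif of vitronectin, fibronectin and the latent form of TGF-β. Laminins are trimers of one α, one β and one γ chain that polymerize in basement membranes and are bound mainly by integrins with α3, α6 or α7. In the sympathetic lineage from which NB arises, these receptors guide neural crest migration and neurite outgrowth.

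Signals are the authors' log2 values from robust multi-array average (RMA), and a gene was represented by its probe set with the highest mean over the 6 arrays. Genes that differed by 2-fold or more and had a limma p under 0.05 after Benjamini-Hochberg adjustment over all genes were called higher or lower. Because no detection calls were used, a background level of 6.20 was taken from 38 genes of unrelated tissues, as the 90th percentile of their means. A fold against a line with every array at or under that level is given as at least the ratio to it. The median log2 signal ran from 5.56 to 5.59 over the arrays, and arrays correlated at Pearson's r of 0.997 to 0.998 within a line and 0.959 to 0.960 between lines, across probe sets. Of 10 noradrenergic neuroblast markers 7 were lower in SY5Y-TR1 and none higher, where 5.99% of all genes were called lower. The markers had a mean log2 signal per array of 7.30 to 7.50 in SY5Y-TR1 and 9.85 to 9.89 in SH-SY5Y. Their part in the integrin results was not tested, and in bulk RNA fewer cells of a type and less RNA per cell cannot be told apart.

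In SY5Y-TR1 cells 7 of the 35 genes passed as higher and 1 as lower, and the other 27 did not pass. The higher genes were the integrin α subunits ITGA3, ITGA2, ITGA11, ITGA5 and ITGA4, the β subunit ITGB5 and the laminin chain LAMB2, and the lower gene was ITGA9. Among all genes 11.4% were called, 5.36% as higher and 5.99% as lower. The 8 called members make up 22.9% of the 35. The median log2 fold change was 0.25 over the members and 0.04 over all genes. Without the 2-fold limit, 19 members were higher and 3 lower at an adjusted p under 0.05, against 28.5% and 24.3% of all genes. The arrays of the lines did not overlap for 25 members, 22 with SY5Y-TR1 higher and 3 with it lower, against 59.7% of all genes (32.6% higher and 27.2% lower). On all 6 arrays 18 members were above the background level, and 13 were not above it on any array.

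**Figure D1:**
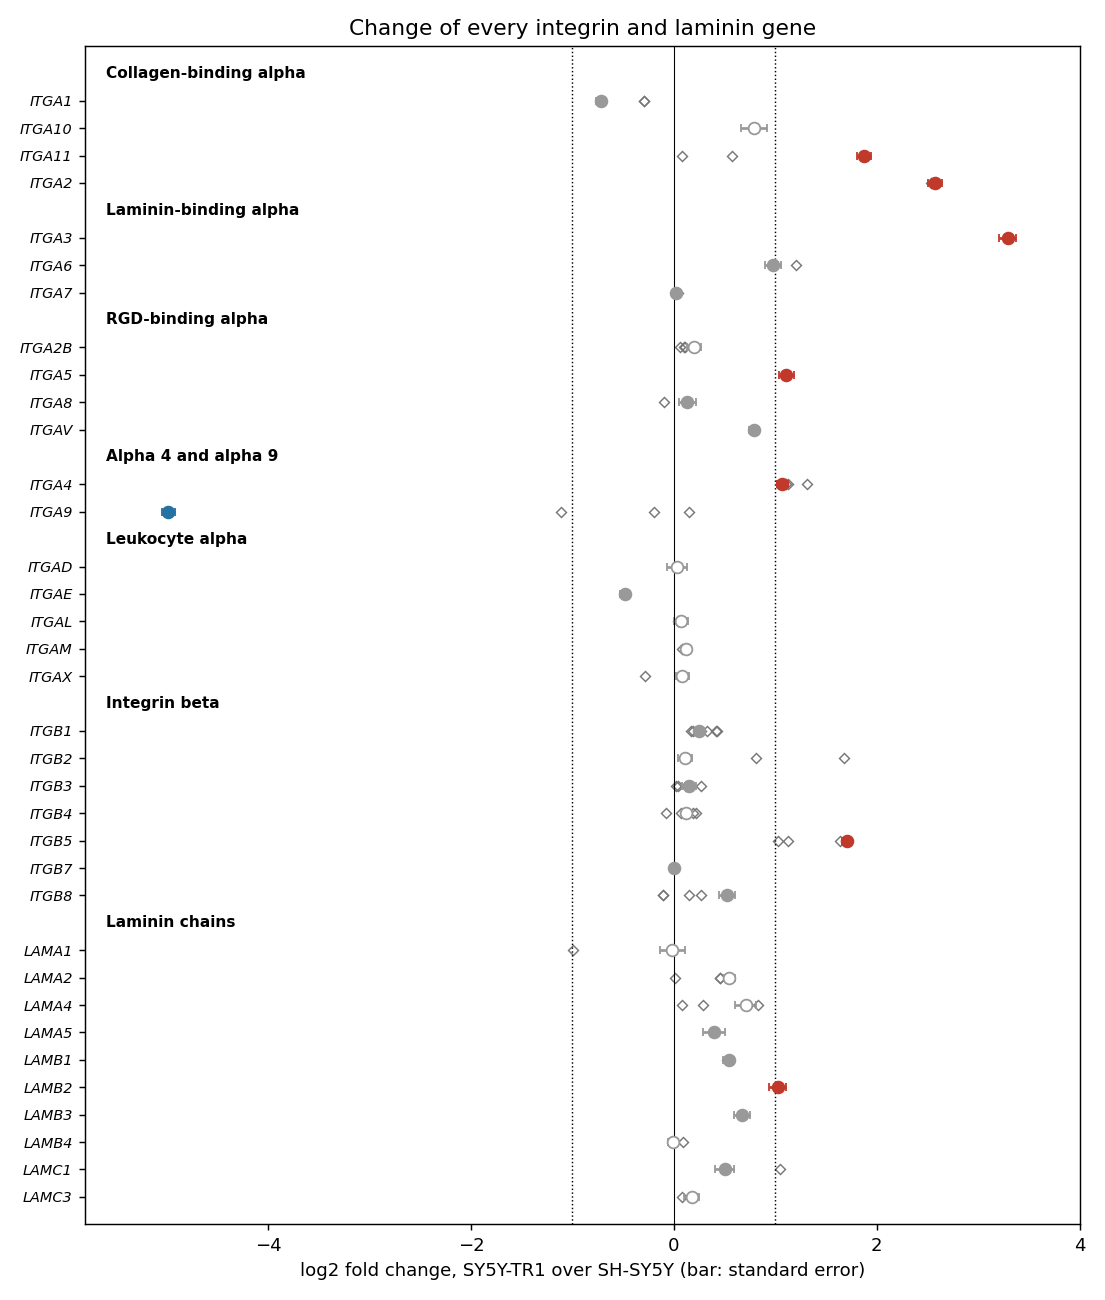
Log2 fold change of the 35 integrin and laminin genes (x axis, SY5Y-TR1 over SH-SY5Y) by subunit class (y axis); circles are the brightest probe set with its standard error (n = 3 arrays in each line), diamonds the other probe sets, red marks genes called higher, blue genes called lower, grey genes that did not pass, and white-filled circles genes not above the background level on any array. ITGA3 lies farthest to the right at 3.29 and ITGA9 farthest to the left at -4.98, beyond the dotted 2-fold lines.

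The largest increase among the members was in ITGA3, which encodes the α subunit of the laminin receptor α3β1. Its probe set 201474_s_at read 9.69, 9.86 and 9.74 on the SY5Y-TR1 arrays and 6.37, 6.41 and 6.64 on the SH-SY5Y arrays. The lines were separated by 3.05 log2 units between their nearest arrays, and the SH-SY5Y arrays lay just above the background level. The means were 9.77 ± 0.09 in SY5Y-TR1 and 6.48 ± 0.15 in SH-SY5Y (n = 3 each, SD), which is 9.78-fold (log2 fold change 3.29 with a standard error of 0.08, limma adjusted p = 1.48e-07) and ranked 120 among the increases of all genes. ITGA3 had no other probe set, and this one is of the kind whose probes may match shared sequence.

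ITGA6, the other laminin-binding α subunit with a clear signal, partners β1 in most cells and β4 in epithelia. It read 10.98, 11.12 and 11.00 in SY5Y-TR1 and 10.06, 9.91 and 10.18 in SH-SY5Y, with no overlap. The log2 fold change of 0.98 (standard error 0.08, adjusted p = 3.76e-05 from limma) stayed just under the 2-fold limit. Its dimmer probe set 215177_s_at read 9.45, 9.45 and 9.53 in SY5Y-TR1 and 8.30, 8.25 and 8.28 in SH-SY5Y and passed as higher (log2 fold change 1.20), so whether ITGA6 was called rested on the probe set. It also passed without SY5Y-TR1 replicate 1 (1.01) or without SH-SY5Y replicate 3 (1.05). ITGA7, the laminin receptor subunit of muscle, averaged 6.76 in SY5Y-TR1 and 6.74 in SH-SY5Y, a log2 fold change of 0.02 with a 95% interval from -0.08 to 0.12.

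Among the collagen-binding α subunits, ITGA2 and ITGA11 were higher, and ITGA1 and ITGA10 did not pass. ITGA2, which with β1 forms the collagen receptor of platelets and epithelia, read 12.21, 12.46 and 12.37 in SY5Y-TR1 and 9.77, 9.77 and 9.78 in SH-SY5Y. The lowest SY5Y-TR1 array stood 2.43 above the highest SH-SY5Y array, and the difference was 5.95-fold (log2 fold change 2.57 with a standard error of 0.07, limma adjusted p = 1.58e-07). The other ITGA2 probe set, 205032_at, gave a log2 fold change of 2.54 and passed too.

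ITGA11 encodes the α subunit of a fibroblast receptor for fibrillar collagen. Its probe set 222899_at read 8.21, 8.05 and 8.24 in SY5Y-TR1 and 6.39, 6.26 and 6.24 in SH-SY5Y. All 3 SH-SY5Y values were barely above the background level, and the lines did not overlap. The difference was 3.66-fold (log2 fold change 1.87 with a standard error of 0.07, limma adjusted p = 8.12e-07), but both other ITGA11 probe sets lay under the background level on all arrays and did not pass, and ITGA11 did not pass by the mean of its probe sets (log2 fold change 0.84).

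ITGA1, the subunit of a collagen IV receptor of neural and mesenchymal cells, read 7.73, 7.73 and 7.82 in SY5Y-TR1 and 8.52, 8.40 and 8.52 in SH-SY5Y. By this probe set every SY5Y-TR1 array was below every SH-SY5Y array, although the log2 fold change of -0.72 (95% interval -0.85 to -0.59, adjusted p = 2.42e-05 from limma) did not reach 2-fold. The dimmer ITGA1 probe set 214660_at overlapped, at 6.19, 6.48 and 6.32 in SY5Y-TR1 and 6.54, 6.45 and 6.87 in SH-SY5Y. By the mean of its probe sets the log2 fold change of ITGA1 was -0.43. ITGA10, a collagen receptor subunit of cartilage, was under the background level on all arrays. ITGA1 and ITGA2 are neighbours on chromosome 5. Ordered by start coordinate alone, PELO, a ribosome rescue gene, comes between them among the measured protein-coding genes. PELO had a log2 fold change of 0.65 and MOCS2, on the other side of ITGA2, one of 0.48. Neither passed at 2-fold, whereas FST, the activin antagonist next beyond MOCS2, was called higher (log2 fold change 6.49). Of the 48 measured genes that lie among the 3 nearest on either side of the 8 called members, 6 were called, or 12.5%, against 11.4% of all genes.

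**Figure D2:**
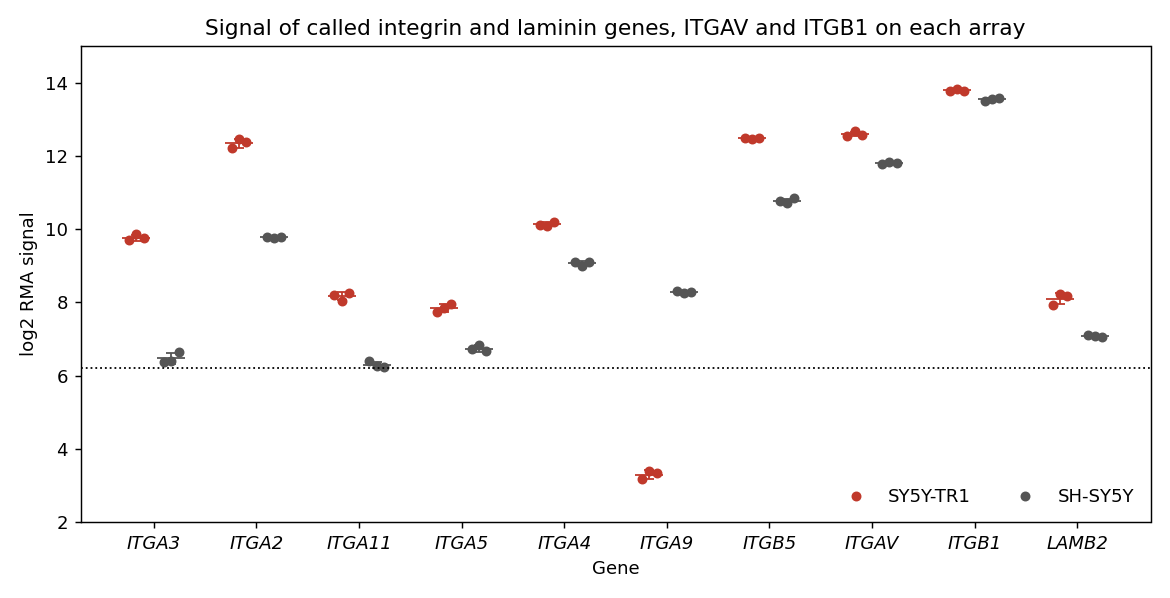
Log2 RMA signal (y axis) of the 8 called genes, ITGAV and ITGB1 per array; each point is one array of SY5Y-TR1 (red, left) or SH-SY5Y (grey, right), bars give mean and SD, and a dotted line marks the background level of 6.20. The lines do not overlap for any of the 10 genes, and ITGA9 is the gene that falls below the dotted line in SY5Y-TR1, at 3.30.

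ITGA9 encodes the α subunit of α9β1, a receptor for tenascin-C, osteopontin and VCAM1. It was the member called lower. Its probe set 227297_at read 3.17, 3.39 and 3.34 in SY5Y-TR1, under the background level on all 3 arrays, and 8.30, 8.26 and 8.29 in SH-SY5Y, well above it. The signal was at least 4.22-fold lower in SY5Y-TR1, or at least 8.13-fold with the background level taken at the 75th percentile. As measured, the means were 3.30 ± 0.12 in SY5Y-TR1 and 8.28 ± 0.02 in SH-SY5Y (n = 3 each, SD), a log2 fold change of -4.98 (standard error of 0.06, limma adjusted p = 1.29e-08) that ranked 48 among the decreases of all genes.

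A second ITGA9 probe set, 206009_at, also passed as lower (log2 fold change -1.11), with values of 4.68, 5.18 and 4.67 in SY5Y-TR1 and 5.66, 6.27 and 5.93 in SH-SY5Y, of which 1 was above the background level. The remaining pair of ITGA9 probe sets did not pass (log2 fold changes -0.19 and 0.15) and lay under that level. By the mean of all 4 probe sets the log2 fold change of ITGA9 was -1.53. The neighbours GOLGA4 and CTDSPL, on either side of ITGA9 on chromosome 3, had log2 fold changes of 0.56 and -0.58 and did not pass.

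ITGA4, the closest relative of ITGA9 among the α subunits, moved the opposite way. It encodes the α subunit of α4β1, which binds VCAM1 and an alternatively spliced segment of fibronectin and marks the migrating neural crest. It read 10.11, 10.10 and 10.20 in SY5Y-TR1 and 9.10, 8.99 and 9.11 in SH-SY5Y, without overlap. The difference was 2.10-fold (log2 fold change 1.07 with a standard error of 0.05, limma adjusted p = 3.32e-06), with a 95% interval of 0.94 to 1.19 that reaches below the 2-fold limit. All 4 of its probe sets passed as higher, with log2 fold changes of 1.07 to 1.31.

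Among the RGD-binding receptors, ITGA5 encodes the α subunit of the classical fibronectin receptor α5β1. It read 7.74, 7.84 and 7.97 in SY5Y-TR1 and 6.72, 6.83 and 6.67 in SH-SY5Y, again without overlap. The difference was 2.15-fold (log2 fold change 1.11 with a standard error of 0.07, limma adjusted p = 1.32e-05), from a single probe set. Its 95% interval, 0.93 to 1.28, also reaches below the 2-fold limit. ITGA8, a nephronectin receptor subunit, lay near the background level, at 6.40, 6.35 and 6.14 in SY5Y-TR1 and 6.16, 6.26 and 6.08 in SH-SY5Y, and did not pass (log2 fold change 0.13). The platelet subunit ITGA2B was under that level on all arrays.

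The β subunit called higher at 2-fold was ITGB5, the partner of αV in the vitronectin receptor αVβ5. It read 12.49, 12.46 and 12.48 in SY5Y-TR1 and 10.76, 10.71 and 10.84 in SH-SY5Y. The lines stood 1.62 log2 units apart at their nearest arrays, and the difference was 3.26-fold (log2 fold change 1.70 with a standard error of 0.05, limma adjusted p = 2.10e-07). All 4 ITGB5 probe sets passed as higher, with log2 fold changes of 1.03 to 1.70.

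Its partner ITGAV read 12.55, 12.66 and 12.58 in SY5Y-TR1 and 11.77, 11.84 and 11.81 in SH-SY5Y. No array of one line reached the other line, but at 1.73-fold (log2 fold change 0.79 with a standard error of 0.05, limma adjusted p = 9.01e-06) the gene did not reach 2-fold. ITGB8, which with αV binds latent TGF-β, read 8.09, 8.17 and 8.20 in SY5Y-TR1 and 7.72, 7.45 and 7.71 in SH-SY5Y, a log2 fold change of 0.52 that did not pass at 2-fold. Its other probe sets were under the background level on all arrays, and the mean of all 5 gave a log2 fold change of 0.15. ITGB3, the β subunit of another vitronectin receptor, averaged 6.80 in SY5Y-TR1 and 6.65 in SH-SY5Y (log2 fold change 0.15, adjusted p = 0.103 from limma).

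ITGB1, the common partner of the α subunits that were called, did not reach 2-fold. It read 13.78, 13.83 and 13.76 in SY5Y-TR1 and 13.51, 13.55 and 13.57 in SH-SY5Y. Although the lines did not overlap, the difference was 1.19-fold (log2 fold change 0.25, 95% interval 0.14 to 0.35, adjusted p = 0.00220 from limma). The next brightest ITGB1 probe sets gave log2 fold changes of 0.33 and 0.42, and none of its 7 probe sets passed.

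The integrins of leukocytes gave no call. Of the 5 α subunits ITGAD, ITGAE, ITGAL, ITGAM and ITGAX, 4 were under the background level on all arrays, as was their partner ITGB2 by its brightest probe set. ITGAE, which pairs with β7 on intraepithelial T cells, was the exception, at 11.14, 11.06 and 11.15 in SY5Y-TR1 and 11.66, 11.58 and 11.55 in SH-SY5Y. Every SY5Y-TR1 array lay below every SH-SY5Y array, by under 2-fold (log2 fold change -0.48, adjusted p = 0.000139 from limma). ITGB7 straddled the background level in both lines and had a log2 fold change of 0.00. An ITGB2 probe set, 202803_s_at, passed as higher with values of 6.02, 5.77 and 5.99 in SY5Y-TR1 and 4.22, 4.51 and 4.03 in SH-SY5Y, all of them under the background level. Of 10 blood cell markers, 3 were above that level on any SY5Y-TR1 array and 1 on any SH-SY5Y array. Their mean log2 signal was 5.49 to 5.50 per array in SY5Y-TR1 and 5.15 to 5.26 in SH-SY5Y, and only LAPTM5, a lysosomal membrane gene of blood cells, was called (higher, log2 fold change 1.61). The β4 subunit of hemidesmosomes, ITGB4, was under the background level on all arrays. Probe sets of β6 carry a second symbol and were not counted as members.

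**Figure D3:**
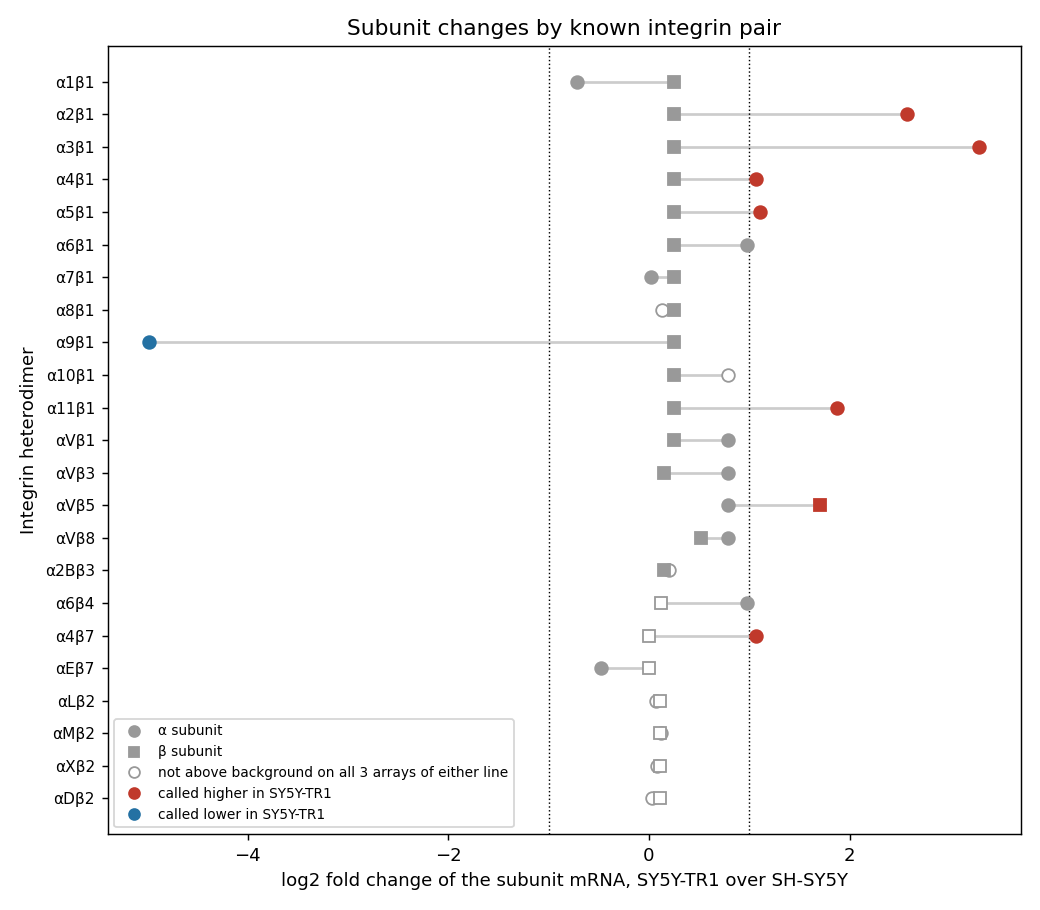
Log2 fold change of each subunit mRNA (x axis, SY5Y-TR1 over SH-SY5Y) in 23 known integrin heterodimers (y axis); circles are α and squares β subunits, red marks genes called higher and blue genes called lower, and white-filled symbols were not above the background level on all 3 arrays of either line. The β1 square stays at 0.25 in every β1 pair, while the α circles run from -4.98 for α9 to 3.29 for α3.

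Read as pairs, 13 of 23 known heterodimers had both subunits above the background level on every SH-SY5Y array, and 12 of these had them so on every SY5Y-TR1 array. The pair present by this measure in SH-SY5Y and not in SY5Y-TR1 was α9β1, and no pair was added. For α11β1 this rests on SH-SY5Y arrays of ITGA11 at 6.39, 6.26 and 6.24, barely above the background level of 6.20. The other ITGA11 probe sets were under that level on all arrays. The SH-SY5Y arrays of ITGA3, at 6.37, 6.41 and 6.64, also lay just above it. Among the 12 pairs with both subunits above the background level in both lines, the α subunit was higher in α2β1, α3β1, α4β1, α5β1 and α11β1, and the β subunit in αVβ5. Neither subunit was called in α1β1, α6β1, α7β1, αVβ1, αVβ3 and αVβ8. ITGA7 and ITGB3 were above the background level by their brightest probe sets alone, which lay close to it. Their other probe sets were under it on all arrays, so counting α7β1 and αVβ3 rests on 1 probe set of each gene. Signals of different probe sets are on no common scale, so it cannot be read from them which receptor was the most abundant, and pairing itself was not measured.

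The upstream sequences of called genes are shown because several integrin genes rose together. The RefSeq promoter table (GRCh38.p14) held 24 of the 35 members. For each, the 250 bases before the annotated start were searched on both strands for TGANTCA (the AP-1 motif), GGAATG (the TEAD motif) and the E-boxes CACGTG and CAGGTG, none of which contains another. Matches are in capitals. ITGA2, ITGA11 and ITGB5 had the largest called increases of the members in the table, and ITGA5 is the called member with a TEAD match.
ITGA2, chr5:52989102-52989351, plus strand: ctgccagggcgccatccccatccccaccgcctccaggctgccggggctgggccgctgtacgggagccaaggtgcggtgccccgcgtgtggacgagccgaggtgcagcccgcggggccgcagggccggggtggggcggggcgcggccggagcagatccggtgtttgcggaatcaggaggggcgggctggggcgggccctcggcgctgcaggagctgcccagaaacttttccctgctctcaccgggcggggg
ITGA11, chr15:68432164-68432413, minus strand: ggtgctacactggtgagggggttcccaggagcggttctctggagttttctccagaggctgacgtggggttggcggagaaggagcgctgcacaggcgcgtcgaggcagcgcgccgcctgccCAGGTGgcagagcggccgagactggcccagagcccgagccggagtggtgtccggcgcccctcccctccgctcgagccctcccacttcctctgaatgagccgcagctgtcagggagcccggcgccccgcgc
ITGB5, chr3:124901419-124901668, minus strand: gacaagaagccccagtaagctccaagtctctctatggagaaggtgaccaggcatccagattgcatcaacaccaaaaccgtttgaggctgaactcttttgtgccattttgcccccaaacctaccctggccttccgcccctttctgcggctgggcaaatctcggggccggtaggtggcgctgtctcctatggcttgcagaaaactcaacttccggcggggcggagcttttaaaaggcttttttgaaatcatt
ITGA5, chr12:54419267-54419516, minus strand: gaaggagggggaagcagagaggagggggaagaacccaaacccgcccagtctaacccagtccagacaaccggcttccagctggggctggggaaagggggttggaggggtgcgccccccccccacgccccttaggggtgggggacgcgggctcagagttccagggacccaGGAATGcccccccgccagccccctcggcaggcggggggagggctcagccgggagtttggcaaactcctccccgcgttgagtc

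The ITGA11 sequence holds CAGGTG, the ITGA5 sequence holds GGAATG, and those of ITGA2 and ITGB5 hold none of the 4 motifs. The AP-1 motif was found in 0 of 24 members, against 6.60% of all 27305 promoters of this length. The TEAD motif was found in 4 members, ITGA5, ITGA10, ITGB1 and LAMA2, against 11.9% of all promoters. CACGTG was found in ITGA6 alone, against 6.49%, and CAGGTG in 5 members, ITGA6, ITGA11, LAMA5, LAMB3 and LAMB4, against 17.5%. Of the called members in the table, which are those shown, ITGA4 and LAMB2, none but ITGA5 and ITGA11 held a match. A match is a run of letters and was not tested for binding.

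Of the 10 laminin chains, 1 was called higher, which is near the share of all genes called (11.4%, with 5.36% higher). The median log2 fold change of the chains was 0.52, against 0.04 over all genes. LAMB2, the β2 chain of neuromuscular and kidney basement membranes, read 7.92, 8.23 and 8.17 in SY5Y-TR1 and 7.12, 7.08 and 7.05 in SH-SY5Y, without overlap. The difference was 2.03-fold (log2 fold change 1.02 with a standard error of 0.08, limma adjusted p = 3.80e-05) from a single probe set, also of the shared-sequence kind. It no longer passed without SY5Y-TR1 replicate 2 (0.96) or without SY5Y-TR1 replicate 3 (0.99).

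LAMC1, the γ1 chain of most laminins, read 11.64, 11.99 and 11.92 in SY5Y-TR1 and 11.36, 11.38 and 11.31 in SH-SY5Y, and its log2 fold change of 0.50 did not reach 2-fold. Its dimmer probe set 200770_s_at read 10.04, 10.31 and 10.27 in SY5Y-TR1 and 9.17, 9.12 and 9.18 in SH-SY5Y and passed as higher (log2 fold change 1.05). The LAMC1 call thus differed between its probe sets, as that of ITGA6 did.

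LAMB1, the β1 chain, read 12.07, 12.23 and 12.15 in SY5Y-TR1 and 11.57, 11.60 and 11.65 in SH-SY5Y, a log2 fold change of 0.54. Its other probe set gave 0.53. LAMA5, the α5 chain of mature basement membranes, read 8.02, 8.40 and 8.20 in SY5Y-TR1 and 7.68, 7.96 and 7.80 in SH-SY5Y, a log2 fold change of 0.40 (adjusted p = 0.0204 from limma). The nearest arrays of the lines were 0.07 apart for LAMA5, which is less than the SD within either line.

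The other laminin α chains, LAMA1 of early embryos, LAMA2 of muscle and nerve and LAMA4 of vessels and mesenchyme, were under the background level on all arrays. LAMA2 and LAMA4 nonetheless had no overlap between the lines, with log2 fold changes of 0.55 and 0.71 for which no fold is read. LAMB3, a chain of epithelial laminin, read 6.43, 6.18 and 6.29 in SY5Y-TR1 and 5.72, 5.63 and 5.54 in SH-SY5Y and did not pass. LAMB4 and LAMC3 were under the level throughout. Of 11 trimers with all chains measured, α5β1γ1 and α5β2γ1 had all 3 chains above the background level on every array of both lines. No chain of α5β1γ1 was called, and in α5β2γ1 the β2 chain was.

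**Figure D4:**
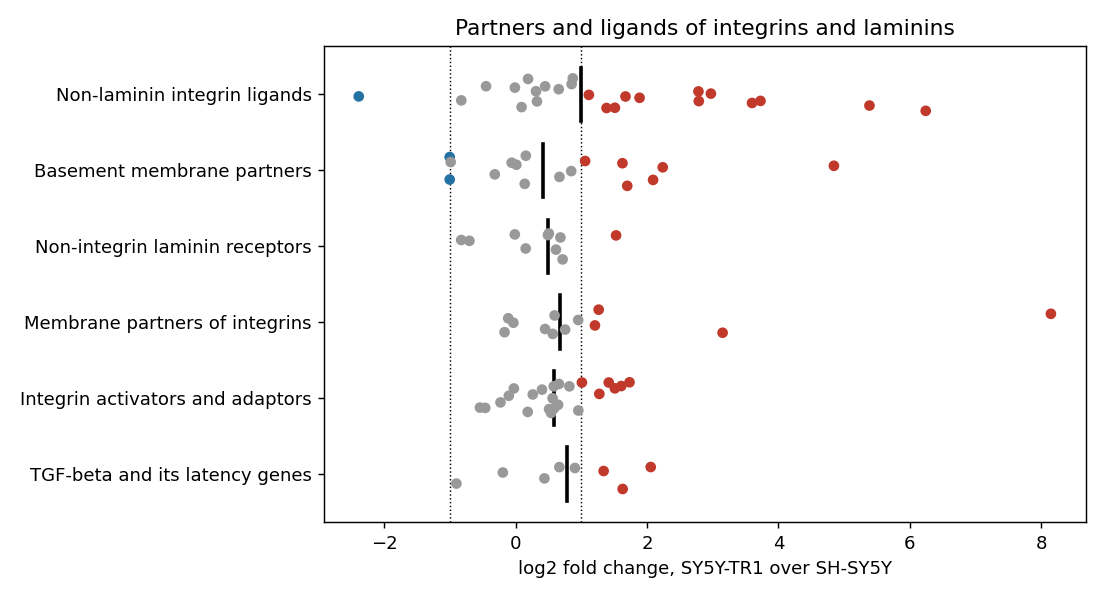
Change of the measured genes in 6 lists of ligands and partners of integrins and laminins (y axis), on the x axis as log2 fold change with SY5Y-TR1 over SH-SY5Y; each point is a gene, red called higher, blue called lower, grey not passed, black bars are medians and dotted lines mark 2-fold. Non-laminin ligands have the median farthest to the right, 0.99, and CAV1 is the rightmost point at 8.15.

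Integrin ligands other than laminin, among them collagens, matricellular proteins and RGD proteins, were counted in the same way. Of 24 such ligands 12 passed as higher and 1 as lower, and the other 11 did not pass, where 5.36% of all genes were called higher and 5.99% lower. The list had a median log2 fold change of 0.99. EDIL3, an RGD protein bound by αV integrins, was at least 52.8-fold higher (log2 signal 11.93 ± 0.01 in SY5Y-TR1 and 5.68 ± 0.34 in SH-SY5Y, n = 3 each, SD). CCN2, a matricellular ligand of several integrins, was 41.8-fold higher. COL1A1, the α1 chain of a fibrillar collagen bound by α2β1 and α11β1, was 13.2-fold higher through 3 of 5 probe sets. COL1A2, the α2 chain of the same collagen, went the other way and did not pass at 2-fold (log2 fold change -0.83). NPNT, nephronectin, was at least 1.07-fold lower (mean log2 signal 3.91 in SY5Y-TR1, 6.30 in SH-SY5Y), and its SH-SY5Y mean lay close to the background level.

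Among 16 basement membrane partners of laminin, 6 were higher and 2 lower (median log2 fold change 0.41), against 5.36% and 5.99% of all genes. COL15A1, a collagen of the outer basement membrane, was at least 2.83-fold higher, averaging 7.70 on the SY5Y-TR1 arrays and 2.86 on the SH-SY5Y arrays. NID2 and COL18A1, a nidogen that links laminin to collagen IV and the precursor of endostatin, were 4.72-fold and 4.26-fold higher. NID1, the other nidogen, was 2.01-fold lower through 1 of 3 probe sets. FBLN2, a laminin-binding fibulin, was called lower with a log2 fold change of -1.01, but its SY5Y-TR1 mean of 6.16 was under the background level, with 1 of its 3 arrays below it, so no fold is read. Both calls are at the 2-fold limit, and no gene of this list was called lower without SY5Y-TR1 replicate 1, while 1 was without SH-SY5Y replicate 1 or replicate 3.

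Outside the integrin family, 10 genes of laminin receptors, sarcoglycans and receptor-modifying enzymes were counted, without dystroglycan (DAG1). Of these 1 was higher, a count near the 5.36% of all genes: SDC4, the focal adhesion proteoglycan syndecan-4, 2.88-fold (median log2 fold change 0.50). Of 12 membrane partners of integrins 4 were higher and none lower (median 0.67). CAV1, which scaffolds caveolae, was at least 89.5-fold higher, PLAUR, the urokinase receptor, 8.87-fold through all 3 probe sets, and the tetraspanin CD82 2.40-fold.

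Inside the cell, 6 of 23 integrin activators and adaptors were higher and none was lower (median 0.58). Beside this count and that of the TGF-β genes below stand 5.36% of all genes called higher and 5.99% called lower. PARVA, α-parvin, which joins integrin-linked kinase to actin, was 3.32-fold higher through 5 of 7 probe sets and TNS1, a tensin of fibrillar adhesions, 3.05-fold through 3 of 5. LIMS1, the PINCH adaptor, also passed, but the mean of either line was under the background level, so no fold is read. Of 8 genes of TGF-β, the LTBP family and LRRC32, 3 were higher (median 0.78). TGFB1 was 4.16-fold higher through 1 of 2 probe sets, LTBP2 3.09-fold, and LRRC32, which anchors latent TGF-β, at least 1.75-fold. Of the marker lists of other cell types, none of the 8 endothelial, 6 Schwann cell and 10 epithelial markers was called. No endothelial marker was above the background level on any array. On any SY5Y-TR1 array 1 Schwann cell and 1 epithelial marker were above it, and on the SH-SY5Y arrays 0 of either list. With so few markers above background, the lack of calls does not show that their expression was unchanged.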

How the data were processed

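RNA of SY5Y-TR1 and SH-SY5Y cells was measured on 3 U133 Plus 2.0 arrays per line. The values used are log2 signals that the authors computed with RMA in Expression Console (version: not given in the sources used here). Since RMA includes background correction, quantile normalization and probe set summarization, scanner-level settings were not varied. Of 54675 probe sets, 62 controls were left out. Among the 54613 tested, 41091 carried 1 gene symbol, 1801 several and 11721 none in the platform annotation, and RefSeq identifiers matched 41037 of the first. Some subunits were not analysed here.

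Differences between the lines over 19775 genes came from lmFit and eBayes of limma 3.58.1 (R 4.3.3), with no block for replicate number. Other probe sets were taken from a fit over all probe sets. No pseudocount was added. The number of arrays limits the precision, and the median SD was 0.07 in each line. The fit was tested on simulated data. The members, gene lists and thresholds were chosen with earlier results of these data known. Named are all members and up to 3 called genes per direction in each list, those with the greatest change. The noradrenergic markers are the exception and are given by count and mean signal only. Values on every array are given for called members, ITGAV and ITGB1. COL1A2, which was not called, is named beside COL1A1 in addition. Values on every array of other members, of other probe sets and of neighbouring genes were chosen after they were seen. Of 45 listed genes of unrelated tissues 38 were measured, and 4 of these lie above the background level by construction. The methods' t-test, other probe set choices, scalings, filters, variance models, thresholds and left-out arrays were tried as alternatives. In the promoter table, 2822 of 2822 overlapping windows of opposite strands were reverse complements of each other.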

Additional observations from a re-analysis of the deposited data

How the results depend on the processing

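The counts of 7 members higher and 1 lower were the same with the mean of all probe sets, arrays centred on 20 housekeeping genes, quantile normalization again, dim probes left out, signals under the background level set to it, an intensity trend with robust variance, adjustment over all probe sets, and the methods' t-test with Benjamini-Hochberg adjustment. By that test 10680 genes passed its own threshold, 9637 after adjustment. With the mean of probe sets ITGA9 stayed lower (-1.53), ITGA11 left the calls (log2 fold change 0.84) and ITGA6 entered (1.09). Without shared-sequence probe sets 30 members could be measured and 5 were higher, as ITGA3 and LAMB2 then had no probe set left. Leaving out each array in turn gave 6 to 8 higher members and 1 lower member, and 1030 to 1082 higher and 1172 to 1206 lower genes in all. A limit of 1.5-fold gave 12 higher and 2 lower members and 2171 higher and 2162 lower genes, and no fold limit gave 19 and 3 members and 5634 and 4813 genes. At 1.5-fold the higher counts were 10 activators and adaptors, 7 membrane partners, 4 genes of the laminin receptor list and 5 of the TGF-β list. The lower counts were 2 ligands, 2 genes of the laminin receptor list and 1 of the TGF-β list. The lower basement membrane genes ranged from 0 to 3 over left-out arrays, an alternative chosen after seeing the data. ITGA7, not called, changed sign with quantile normalization again (-0.0305) and without SY5Y-TR1 replicate 3, with a range of -0.0033 to 0.0397 over left-out arrays. The cause of these shifts was not tested. With the background at the 75th percentile (5.26) ITGA9 was at least 8.13-fold lower. Across all genes, same-numbered arrays did not deviate together (r = 0.0002, 0.02 and 0.03, and 2 of 6 arrays correlated best with their own number). This cannot show whether same-numbered cultures were handled together, since only the arrays were compared. With a replicate block 7 members were higher and 1 lower, the same 8 genes.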
